A study of Arabidopsis thaliana with 4 samples.

Results

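Nuclear genes for subunits of photosystem I were examined for association with FHY1 in Arabidopsis thaliana seedlings in far-red light. The 8 genes were PSAD-1 (AT4G02770), PSAD-2 (AT1G03130), PSAE-1 (AT4G28750), PSAF (AT1G31330), PSAG (AT1G55670), PSAK (AT1G30380), PSAH2 (AT1G52230) and PSAL (AT4G12800). They were chosen by function, with earlier results of these data known. They are 8 of the 27444 nuclear protein-coding genes of the RefSeq table, and the table's symbols match their names. A peak belonged to a gene if it overlapped by at least 1 bp the gene extended by 1000 bp at both ends, called the window here. Genes of 780 to 1505 bp, they lie on chromosomes 1 and 4.

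The data are chromatin immunoprecipitation followed by sequencing (ChIP-seq), which recovers the DNA cross-linked to a protein. The seedlings carried 35S:GFP-FHY1 in the fhy1-1 mutant, so that the FHY1 fusion was driven by the constitutive 35S promoter rather than by its own. They were grown in darkness to an age of 4 days and given far-red light for 3 h. The study has 3 biological replicates of the ChIP and 1 input sample, which was not analysed here, and all samples share this genotype and treatment. The labels name an anti-GFP antibody and the design text an antibody against FHY1.

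Photosystem I is the thylakoid complex that takes electrons from plastocyanin in the lumen and passes them to ferredoxin in the stroma. Its reaction centre proteins PsaA and PsaB are encoded in the chloroplast, while the subunits around them are mostly encoded in the nucleus and imported. FHY1 helps phyA, the photoreceptor for far-red light, to enter the nucleus, where phyA acts on light-regulated genes, and nuclear genes for photosynthesis are a classic group of such genes in greening seedlings.

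The authors deposited 1 peak list for each replicate, with 8423 peaks in replicate 1, 28170 in replicate 2 and 19150 in replicate 3. Each peak has a whole-number tag count, a score, a fold enrichment over a background that is not stated, and a false discovery rate in percent. The lists hold peaks with a fold of at least 2.95 only, so a gene without a peak was below the authors' thresholds and not shown to lack signal. The median fold of all peaks was 4.06, 3.92 and 4.16 in replicates 1, 2 and 3. Sequencing depth is unknown, and tag counts are not scaled between replicates. The lists are dense: 40.1% of all protein-coding genes had a peak in their window in replicate 1, 79% in replicate 2 and 67.7% in replicate 3. No second light condition was analysed, so that what follows describes occupancy in 1 condition.

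Of the 8 genes, 5 had a peak in all 3 replicates: PSAD-1, PSAD-2, PSAF, PSAG and PSAK. Across all protein-coding genes the share was 34.1%, and it was 27.1% for the 5566 genes of 780 to 1505 bp. PSAL had a peak in 2 replicates, and PSAE-1 and PSAH2 in 1 replicate each. By replicate, peaks lay at 6 of the 8 genes in replicate 1, 7 in replicate 2 and 6 in replicate 3. The count in replicate 2 (87.5%) is near its background of 79%, and that in replicate 3 (75%) near 67.7%, while in replicate 1 it was 75% against 40.1%. Among genes of 780 to 1505 bp the background was 33.6%, 70.8% and 58.9% in replicates 1, 2 and 3. At least 2 replicates had a peak at 6 genes, against 66.2% of all protein-coding genes. Without replicate 1, 5 of the 8 genes (62.5%) had a peak in both other replicates, against 61% of all protein-coding genes. This count is thus at the background of genes of all lengths, and no such share was computed for genes of 780 to 1505 bp. These shares over a chosen list of 8 were not tested.

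**Figure D1:**
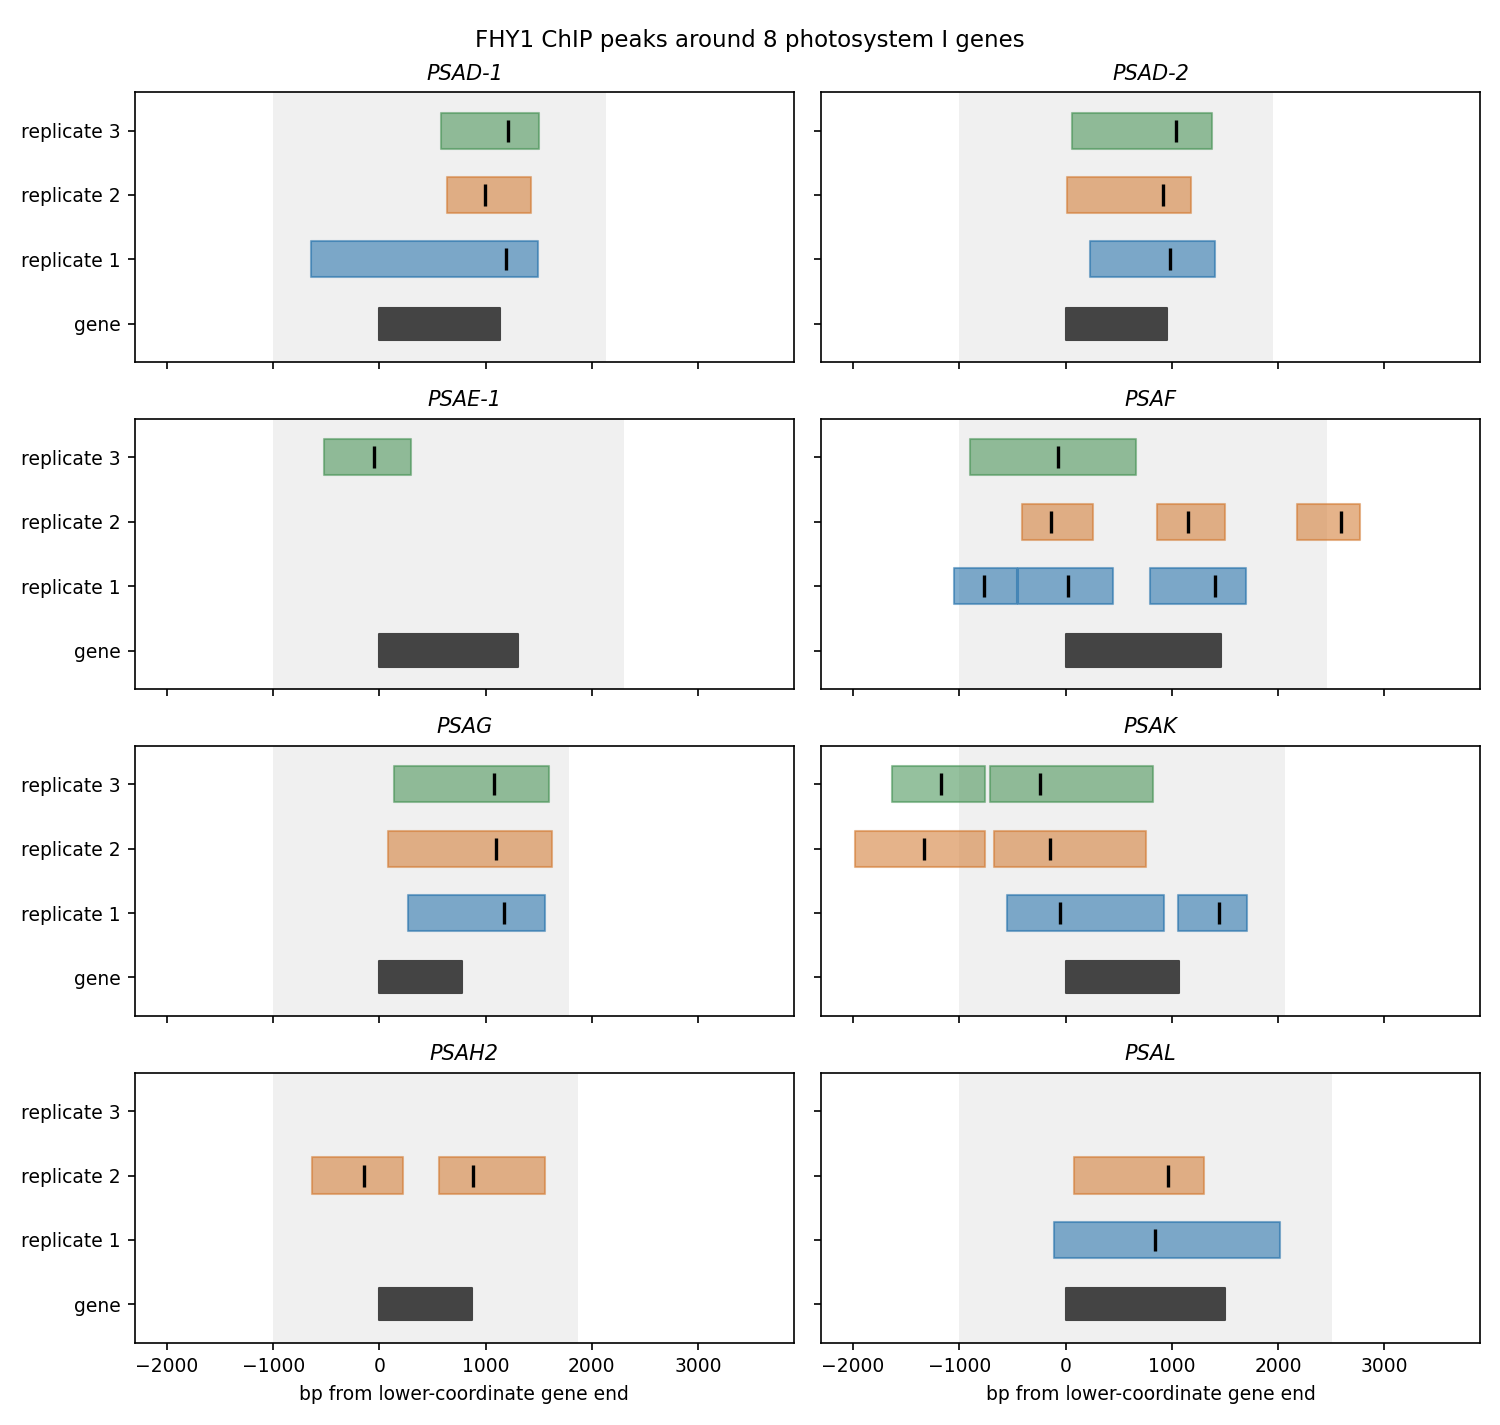
Position of the peaks around each of the 8 genes, in bp from the gene end with the lower coordinate. Dark bars are the genes, grey areas the windows of 1000 bp on both sides, coloured bars the peaks of each replicate and black ticks their summits; PSAD-1, PSAD-2, PSAF, PSAG and PSAK have overlapping peaks in all 3 replicates.

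PSAD-1 and PSAD-2 encode the same subunit, PsaD, a stromal protein that forms the docking site for ferredoxin. PSAD-1 had folds of 4.55, 5.33 and 5.75 in replicates 1, 2 and 3 (5.21 ± 0.61, SD, n = 3). These were above the list median in each replicate, and the peaks ranked high by score, above 96.9%, 90.6% and 89.8% of the peaks of their lists. The peaks ran on chromosome 4 from 1228386 to 1230527 with 1245 tags in replicate 1, from 1229663 to 1230462 with 689 tags in replicate 2, and from 1229610 to 1230530 with 678 tags in replicate 3. Their summits lay at 1230226, 1230029 and 1230239, a spread of 210 bp, each within 250 bp of the gene end with the higher coordinate. Only the wide replicate 1 peak also reached the neighbour AT4G02760.

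PSAD-2 had lower and closely matching folds of 4.29, 4.33 and 4.18 (4.27 ± 0.08, SD, n = 3). The PSAD-1 fold was the higher in each replicate. The PSAD-2 peaks ran on chromosome 1 from 753541 to 754717, from 753324 to 754485 and from 753369 to 754688, with 550, 683 and 721 tags. Their scores stood above 57.2%, 58.6% and 63.9% of their lists, so that PSAD-2 was near the middle of each list where PSAD-1 was near the top. Their summits at 754288, 754229 and 754351 were also within 250 bp of the higher-coordinate end, where the gene overlaps its neighbour AT1G03140. In replicates 1 and 3 the summit lay outside PSAD-2 and inside AT1G03140, and in replicate 2 it lay inside PSAD-2. Each peak overlapped both genes. The peaks therefore cannot be assigned to PSAD-2 alone.

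PSAE-1 encodes PsaE, which sits beside PsaD on the stromal side. It had 1 peak, in replicate 3, on chromosome 4 from 14202240 to 14203059, with a fold of 3.37 and 440 tags. Its score was above 40.8% and its fold above 15.6% of that list, so it was a weak peak. The summit at 14202705 lay just outside the gene and inside the neighbour AT4G28740, whose end overlaps that of PSAE-1. In replicates 1 and 2 the nearest peaks lay more than 2000 bp away.

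PSAF encodes PsaF, the subunit with which plastocyanin docks on the lumenal side. Its highest folds were 4.15, 5.41 and 3.22 (4.26 ± 1.10, SD, n = 3), the widest spread among the 5 genes. It was also the gene with the most peaks, 3 in replicate 1, 3 in replicate 2 and 1 in replicate 3. At the lower-coordinate end, peaks of all replicates overlapped on chromosome 1 between 11214262 and 11214938. Their folds were 3.46, 5.41 and 3.22, and they held 420, 511 and 756 tags. The summits there lay at 11214698, 11214540 and 11214603, within 250 bp of the gene end. Each of these peaks also reached the neighbour LBD4 (AT1G31320), a LOB-domain transcription factor gene. The replicate 1 summit lay inside PSAF, whereas that of replicate 2, with the fold of 5.41, lay inside LBD4. In replicates 2 and 3 the gene end nearest to the summit was that of LBD4. These peaks therefore cannot be assigned to PSAF alone. A further peak lay at the other end of PSAF in replicate 1, from 11215474 to 11216379 with a fold of 4.15, and in replicate 2, from 11215537 to 11216182 with a fold of 3.63. Both of these had summits inside PSAF and overlapped no other protein-coding gene. Replicate 3 had no peak there. The remaining peaks, with folds of 3.93 in replicate 1 and 3.6 in replicate 2, had summits inside the neighbours LBD4 and AT1G31335.

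PSAG and PSAK encode related membrane subunits, PsaG and PsaK, at opposite flanks of the core where the antenna proteins of photosystem I attach. PSAG had folds of 3.52, 5.06 and 5.23 (4.60 ± 0.94, SD, n = 3), low in replicate 1 and above the list median in replicates 2 and 3. The peaks ran on chromosome 1 from 20802943 to 20804227, from 20802748 to 20804298 and from 20802803 to 20804269, with 601, 1159 and 1036 tags. Their scores were above 54.6%, 91.4% and 89.3% of the peaks in their lists. The summits at 20803839, 20803763 and 20803747 agreed within 92 bp, the smallest spread of the 5 genes. All 3 summits lay beyond the higher-coordinate end of PSAG, more than 250 bp from it and inside the neighbour AT1G55675. Each peak also covered AT1G55673, which overlaps PSAG.

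PSAK had highest folds of 3.35, 3.97 and 5.04 (4.12 ± 0.85, SD, n = 3), again lowest in replicate 1. These peaks ran on chromosome 1 from 10721631 to 10723106, from 10721512 to 10722939 and from 10721469 to 10723007, with 587, 806 and 952 tags. They stood above 25.9%, 65.6% and 89% of their lists by score, a gene that was weak in one list and strong in another. The summits at 10722131, 10722035 and 10721944 lay outside the gene within 250 bp of its lower-coordinate end. PSAK was the sole gene of the 8 with no other protein-coding gene in its window. A second peak on the same side was called in replicate 2, with a fold of 3.28, and in replicate 3, with 4.98, and both reached the neighbour DLAH (AT1G30370). In replicate 1 the second peak, with a fold of 3.13, lay on the other side.

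PSAH2 and PSAL encode PsaH and PsaL, which lie on the face of the complex where the mobile antenna of photosystem II docks. PSAH2 had peaks in replicate 2 only. One lay on chromosome 1 between 19454166 and 19455023 with a fold of 3.49 and 492 tags, and the other from 19455355 to 19456358 with a fold of 3.0 and 439 tags. The second was close to the authors' limits, with a score above just 7.5% of its list. Each summit lay in a neighbouring gene, AT1G52220 and ROPGEF11 (AT1G52240), within 250 bp of an end of PSAH2.

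PSAL had folds of 3.23 in replicate 1 and 4.25 in replicate 2, on chromosome 4 from 7521149 to 7523275 and from 7521338 to 7522558, with 850 and 583 tags. Both summits, at 7522100 and 7522223, lay inside the gene and more than 250 bp from its ends, unlike the strongest peaks of the 5 genes above. The replicate 2 peak had a score above 3.4% of its list but a fold above 61.9%, so that its rank depends on which value is used. In replicate 3 the nearest peak ran from 7518413 to 7519782, with a fold of 4.49, outside the window of 1000 bp.

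**Figure D2:**
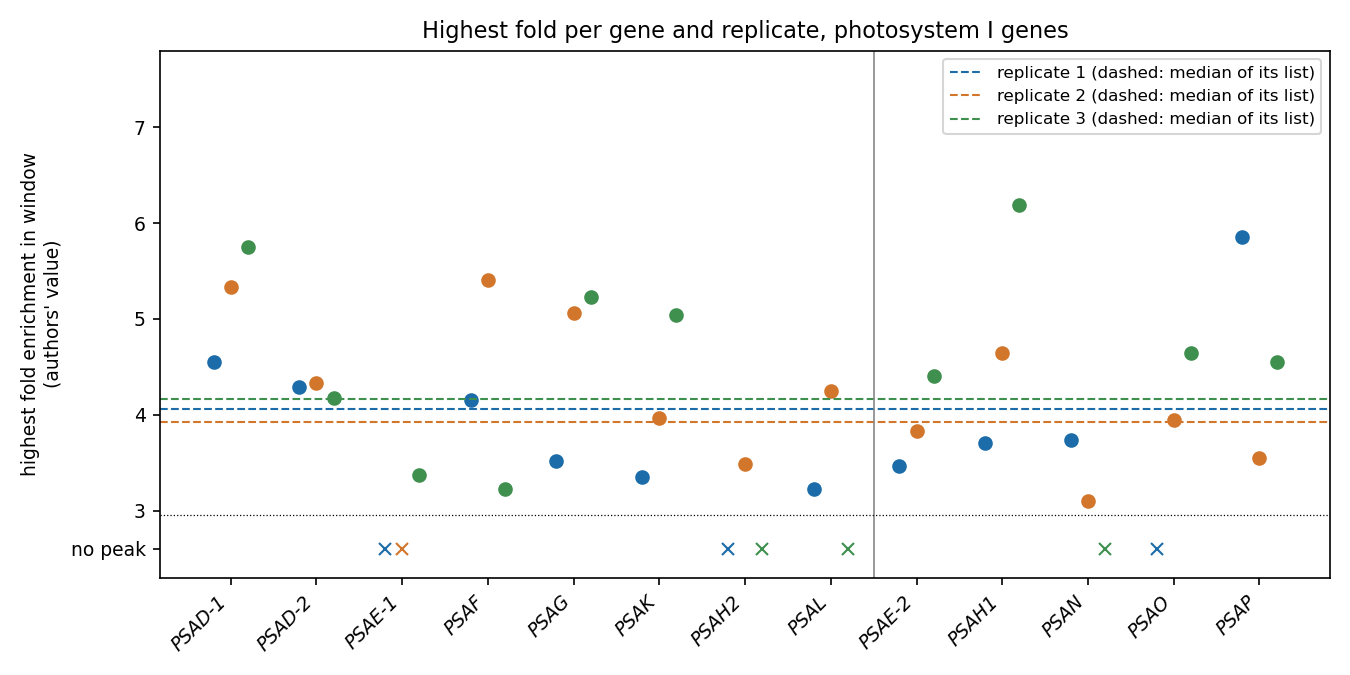
Highest fold enrichment in the window (authors' value, y axis) for the 8 genes, left of the grey line, and the 5 other nuclear photosystem I genes, right of it. Points are single replicates, crosses mark replicates without a peak, dashed lines the median fold of each list and the dotted line the lowest fold listed, 2.95. PSAD-1 and PSAD-2 lie above the list median, which is taken over all single peaks, in each replicate. Against the median highest fold of protein-coding genes with a peak, PSAD-2 is above in replicate 1 (4.13) and below in replicates 2 and 3 (4.42 and 4.51).

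Among genes with a peak, the median highest fold of the 8 genes was 3.83, 4.33 and 4.61 in replicates 1, 2 and 3, and that of all protein-coding genes 4.13, 4.42 and 4.51. With genes that had no peak ranked lowest, the median highest fold over all 8 was 3.44, 4.29 and 3.77 in replicates 1, 2 and 3. The same median over all protein-coding genes was no peak in replicate 1, 4.05 in replicate 2 and 3.87 in replicate 3. A fold of at least 5 was reached by none of the 8 in replicate 1, by PSAD-1, PSAF and PSAG in replicate 2, and by PSAD-1, PSAG and PSAK in replicate 3. The shares of all protein-coding genes at that fold were 9.09%, 25.3% and 22.7%. Ordered by mean fold, the 5 genes with a peak in each replicate ran from PSAD-1 (5.21) over PSAG (4.60), PSAD-2 (4.27) and PSAF (4.26) to PSAK (4.12). Neighbours in this order differed by less than the larger of their SDs. By replicate, PSAD-1 was above PSAG each time, while the order of the other neighbours changed between replicates. These differences were not tested.

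Peaks covered much of the windows. The median covered share of the window over the 8 genes was 53.5% in replicate 1, 42.8% in replicate 2 and 37% in replicate 3, against medians of 0%, 20.4% and 16.8% over all protein-coding genes. The 0% follows from the share of these genes with a peak in replicate 1, which was 40.1%. A peak of a given width fills more of a short window, and this background holds genes of all lengths. No such median was computed for genes in the length range of the 8, and the differences were not tested. The PSAK window was covered at 69.6%, 54.6% and 58%, the highest share of the 8 in replicates 1 and 3. PSAD-1 was covered at 68.3% in replicate 1 but at 25.5% and 29.4% in replicates 2 and 3, where its peaks were narrower. The width of the called peaks thus differed between the lists at one gene, and the median peak width was 957, 689 and 859 bp.

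Stretches covered by peaks of all 3 replicates were found at the same 5 genes, against 28.5% of all protein-coding genes. Each overlapped the gene itself. They measured 800 bp at PSAD-1, 945 bp at PSAD-2, 677 bp at PSAF, 1285 bp at PSAG and 1309 bp at PSAK. The PSAD-1 and PSAK stretches overlapped no other protein-coding gene, whereas those of PSAD-2, PSAF and PSAG did. Of the 27 peaks in the 8 windows, 16 (59.3%) had a summit within 250 bp of an end of the gene, and 7 had a summit inside the gene. Summits inside were 3 of 9, 4 of 11 and 0 of 7 in replicates 1, 2 and 3. In the windows of all protein-coding genes they were 3539 of 13415, 12910 of 38928 and 8153 of 28229. By replicate the share near an end was 55.6%, 54.5% and 71.4%, against 46.3%, 38.8% and 44.3% of peaks in the windows of all protein-coding genes. In that background a peak counts once for each gene it reaches. It holds genes of all lengths, while the 8 genes have 780 to 1505 bp. No such share was computed for genes of this length, and the difference was not tested. Of the 27 summits, 11 lay nearer the lower-coordinate and 16 nearer the higher-coordinate end. Without gene strand, the transcription start and the end of the transcript cannot be told apart.

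The authors' series list, which gives a peak height in 3 samples for 3419 regions, held a region at PSAF and at PSAG, 2 of the 8 genes, against 14.9% of all protein-coding genes. The list names its samples 1 to 3, and they were not matched to the replicates. The PSAF region had heights of 124, 236 and 122 in samples 1, 2 and 3 (160.7 ± 65.2, SD, n = 3), higher in sample 2 than in the others. It ran on chromosome 1 from 11214221 to 11214911 in sample 1, at the lower-coordinate end of the gene, and also overlapped LBD4. At PSAG the heights were 136, 239 and 210 (195.0 ± 53.1, SD, n = 3), and the region ran from 20803641 to 20804230 in sample 1. The mean heights stood above 44.6% and 71% of the list, so that PSAG was the higher of the pair, by less than the SD. The PSAG region touched the window but not the gene, and overlapped AT1G55675. PSAD-1, whose replicate peaks had the highest mean fold of the 5 genes, was not in this list.

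**Figure D3:**
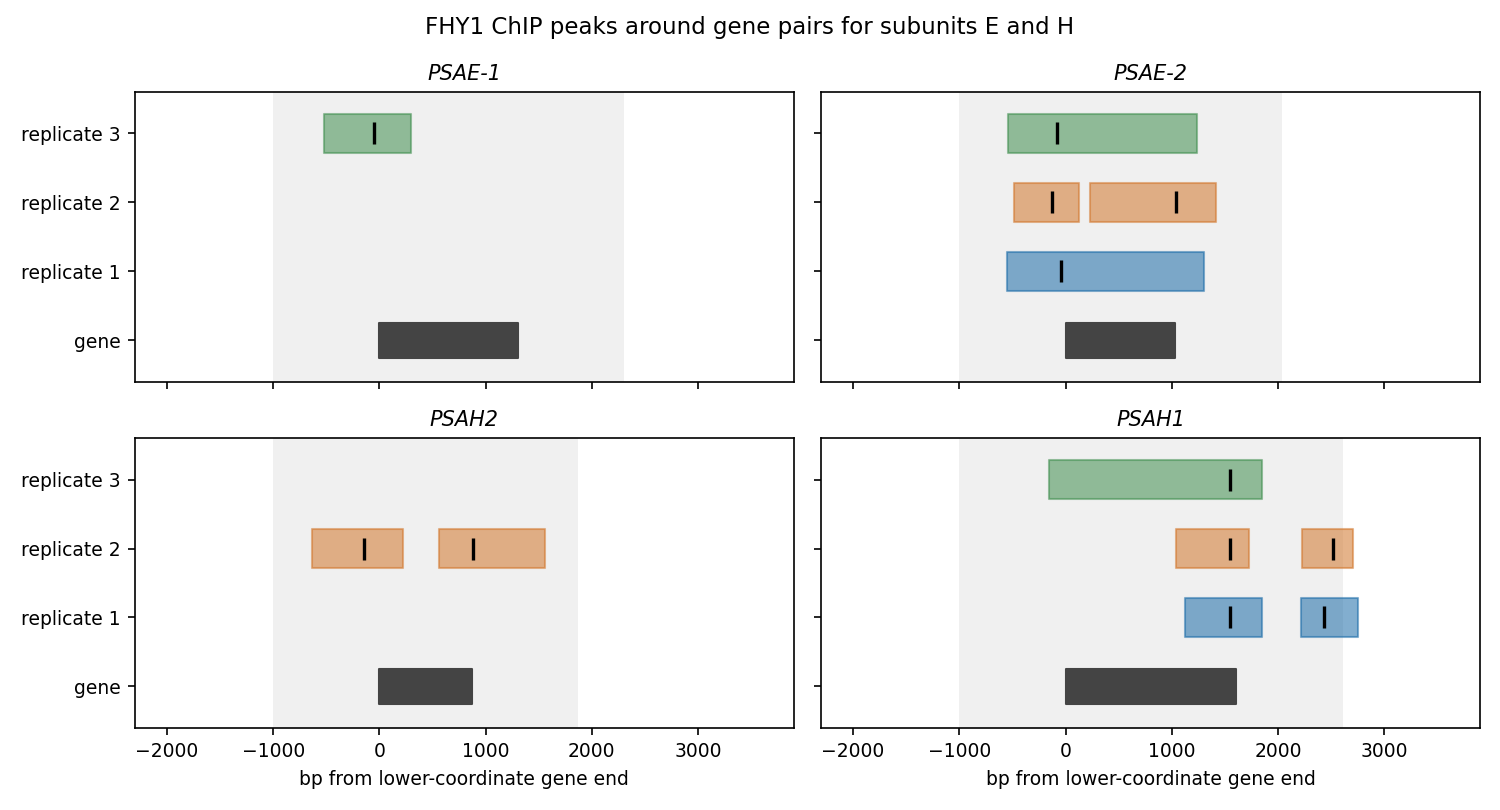
Position of the peaks at the gene pairs for subunits E and H, drawn as for the 8 genes (bp from the lower-coordinate gene end, grey windows, black summit ticks). PSAE-2 and PSAH1 have peaks in all 3 replicates, PSAE-1 in replicate 3 only and PSAH2 in replicate 2 only.

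The gene pairs for PsaE and PsaH had unlike peaks, side by side. PSAE-2 (AT2G20260) had highest folds of 3.47, 3.83 and 4.4 where PSAE-1 had 3.37 in replicate 3 alone. Peaks of all 3 replicates at PSAE-2 overlapped on chromosome 2 from 8736247 to 8736862, at the lower-coordinate end, and from 8736963 to 8737975. The first stretch also overlapped the neighbour AT2G20250 and the second AT2G20270, so these peaks cannot be assigned to PSAE-2 alone. PSAH1 (AT3G16140) had 3.71, 4.64 and 6.19 where PSAH2 had 3.49 in replicate 2 alone. At PSAH1 the peaks overlapped on chromosome 3 from 5469109 to 5469713, with summits at 5469540, 5469538 and 5469531, within 9 bp of each other, and with folds of 3.69, 3.21 and 6.19. PSAH1 was also in the series list, with heights of 112, 128 and 210 in samples 1, 2 and 3. Reads from near-identical stretches of such copies can be shared between them or left out, and the labels do not say how multiply mapping reads were treated. The differences within the pairs were not tested.

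The other nuclear photosystem I genes, PSAN, PSAO and PSAP, were mixed. PSAP (AT2G46820), also known as CURT1B and able to bend thylakoid membranes, had highest folds of 5.86, 3.55 and 4.55. The replicate 3 peak with the fold of 4.55 lay outside PSAP, with its summit inside the neighbour AT2G46810. The longest common stretch at PSAP, on chromosome 2 from 19244556 to 19245757, also overlapped the neighbour AT2G46830, the clock gene CCA1. The peaks on that stretch had folds of 5.86, 3.55 and 3.99. PSAN (AT5G64040), for a lumenal subunit near the plastocyanin site, had folds of 3.74 and 3.1 in replicates 1 and 2, at separate places. PSAO (AT1G08380), for a membrane subunit near PsaL, had 3.94 and 4.64 in replicates 2 and 3. Of all 13 nuclear photosystem I genes examined, 8 had a peak in all 3 replicates (61.5%, against 34.1% of all protein-coding genes).

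Genes for partners of photosystem I had peaks in all 3 replicates in 50% to 100% of each list. The antenna genes LHCA1 to LHCA6 had them in 4 of 6 cases, with the highest summed fold at LHCA4 (4.25, 4.34 and 6.45) and the lowest at LHCA5 (3.43 in replicate 2 alone). The electron donors and acceptors, plastocyanin, ferredoxin and ferredoxin-NADP reductase, had them in 6 of 6. A stretch covered by peaks of all 3 replicates lay in the window of 5 of these 6 (83.3%, against 28.5% of all protein-coding genes). By summed fold the ferredoxin gene FD2 was highest of these (4.94, 4.64 and 7.28), although its replicate 3 peak of that fold lay outside the gene and overlapped the neighbour AT1G60940, while the replicate 3 peak on FD2 itself had a fold of 3.8. The plastocyanin gene PETE1 was lowest (3.51, 4.02 and 3.77). Photosystem I assembly genes had them in 2 of 4, highest at ALB3, for a thylakoid membrane insertase, with 4.94, 4.22 and 5.69. Y3IP1, whose product works with the assembly factor Ycf3, had no peak in any replicate. Nuclear photosystem II genes had peaks in all 3 replicates in 7 of 10, highest in the window of PSBO2 of the oxygen-evolving complex (4.1, 7.69 and 4.15) and lowest at PSBW (3.3 and 3.02 in replicates 2 and 3). These 3 PSBO2 peaks did not overlap the gene and overlapped its neighbour AT3G50830. All of these stand beside the 34.1% of protein-coding genes, and the lists were not tested against it or each other. In the series list were 2 of 6 antenna genes (33.3%), 1 of 6 donors and acceptors (16.7%), 1 of 4 assembly genes (25%) and 3 of 10 photosystem II genes (30%), against 14.9% of all protein-coding genes.

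**Figure D4:**
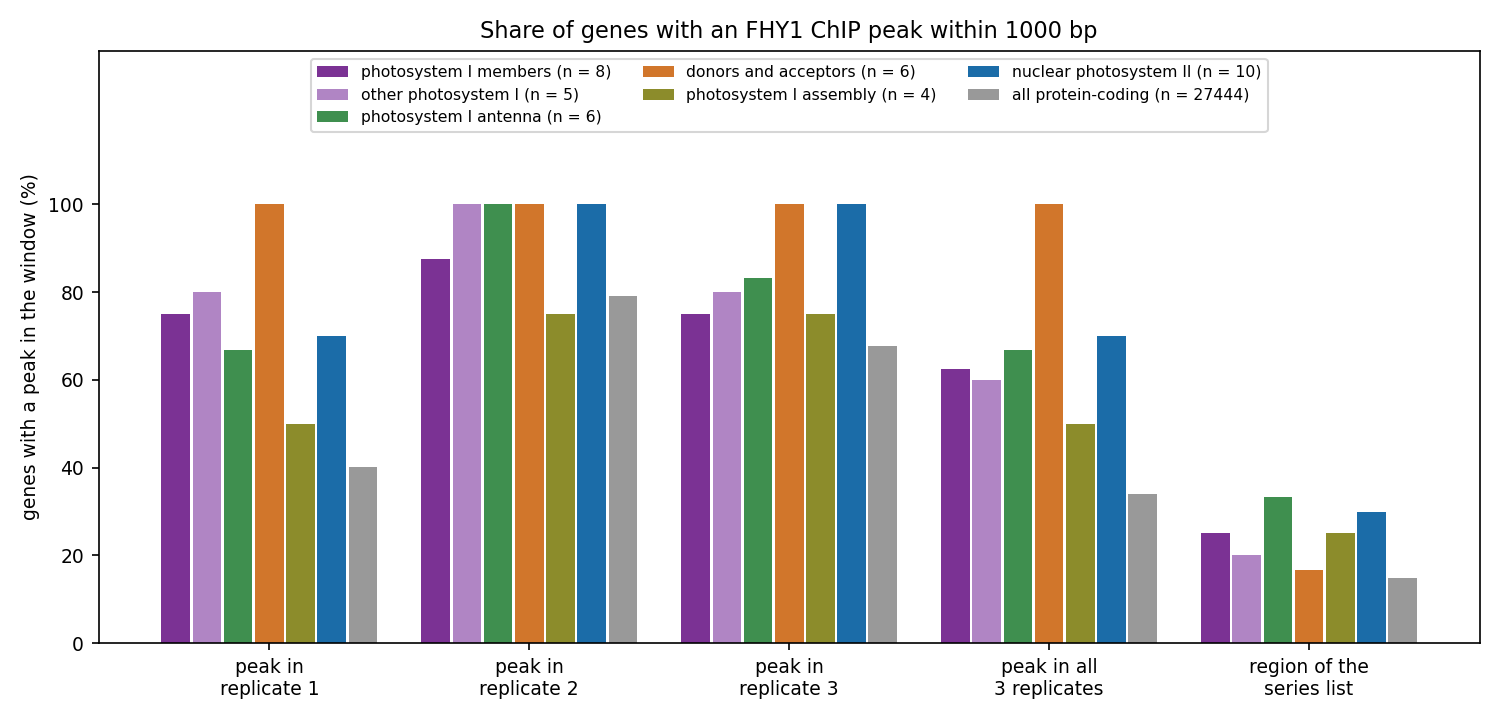
Share of genes with a peak in the window, in percent of each list, for each replicate, for all 3 replicates together and for the series list. Bars are the 8 photosystem I genes (purple), the 5 lists of related genes and all protein-coding genes (grey); in replicate 2 the grey bar is at 79% and the purple bar at 87.5%.

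Among the related genes with a peak in each replicate, those whose highest folds lay nearest to the median of the 8 genes were PSAE-2, FD1 and PSBY. That median, taken on the log2 scale over the genes with a peak, corresponded to folds of 3.82, 4.33 and 4.59 in replicates 1, 2 and 3. Likeness was the Euclidean distance of log2 folds over 3 replicates, and was 0.233 for PSAE-2 and 0.282 for FD1 and for PSBY. FD1 had folds of 3.82, 4.02 and 3.83, and PSBY, for a small photosystem II protein, 3.21, 4.04 and 4.35. The PSBY replicate 3 peak of that fold lay outside the gene. The replicate 3 peak on PSBY itself, which also reached the neighbour AT1G67730, had a fold of 3.85.

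The size of the window changed the count of the 8 genes by at most 1. With the gene alone, 5 of the 8 still had a peak in all 3 replicates, against 23.6% of all protein-coding genes. With 500 bp added at both ends it was again 5, against 29.4%. With 2000 bp it was 6, against 43.6%, the gene gained being PSAL. When each list was cut to its 8423 highest scores, PSAD-1 and PSAG kept a peak in all 3 replicates, against 17.9% of protein-coding genes. PSAD-2 and PSAK then lost theirs in replicate 2, and PSAF in replicate 3. With a false discovery rate of at most 1%, PSAD-2, PSAF and PSAK kept a peak in all 3 replicates, against 24.6% of protein-coding genes, and PSAD-1 and PSAG did not.

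**Figure D5:**
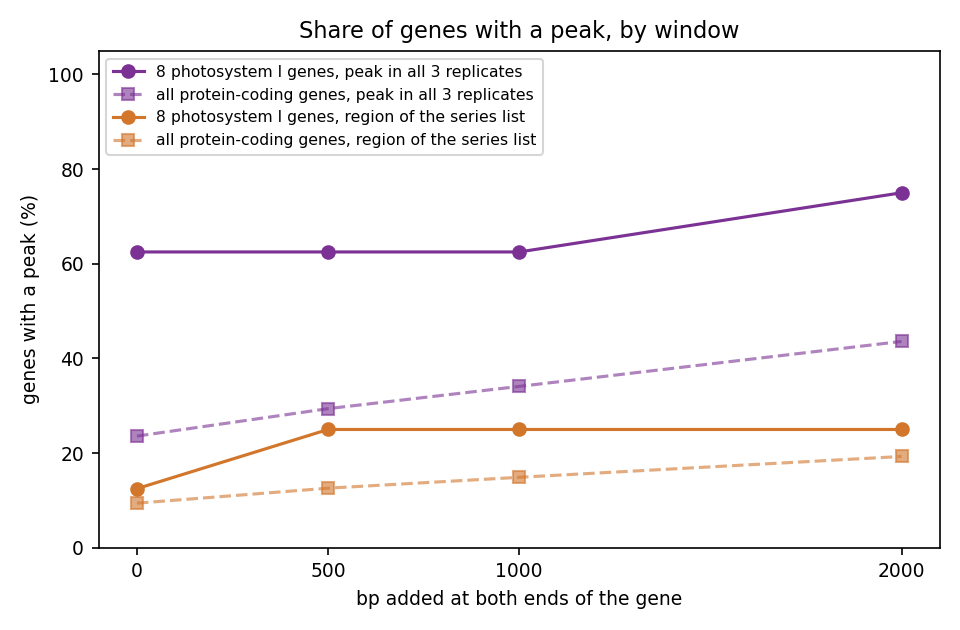
Share of genes with a peak (y axis, percent) by the number of bp added at both ends of the gene (x axis). Circles are the 8 photosystem I genes and squares all protein-coding genes, for a peak in all 3 replicates (purple) and a region of the series list (orange); with the gene alone, 5 of the 8 genes have a peak in all 3 replicates against 23.6% of all genes.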

How the data were processed

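Peak lists of 3 ChIP samples, grouped by title, were analysed in 1 condition, and the input was not analysed here. Per the submitters' processing notes, Bowtie and the build TAIR10 were used for the reads. No label or header names the peak caller, its settings or its background, so these are not stated. The deposited replicate lists have no header. From their layout and values, each holds a tag count, a score (apparently a multiple of the negative log of a p-value), a fold enrichment (a ratio), and a false discovery rate in percent, all as the authors deposited them. The deposited series list gives a peak height, used as signal, whose scaling is not stated. Summits were taken as start plus the deposited offset.

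Peak coordinates are TAIR10. Gene positions came from a RefSeq table of TAIR10.1 and none is printed. With the table unshifted, 38.4% of the midpoints of stretches common to all replicates lay in protein-coding genes, and after shifts of 2000 bp either way 66.3% and 67.2%. Most of these midpoints thus lay outside protein-coding genes when unshifted, and inside them after a shift in either direction. The table gives no strand, so values by transcription start were not computed. Sequences were not used here, so the planned motif and protein comparisons were not run. Of 33 related genes in 5 lists, 31 had a matching symbol and were kept. Named were all 8 genes, the other photosystem I genes, and the highest and lowest of each other list by summed fold, with neighbours named after their values were seen. Percentiles are shares of a list's peaks with a lower value. The members and lists were chosen with earlier results of these data known. Overlap counting was tested on simulated peaks. Alternatives were the window, midpoints, stricter thresholds, equal list lengths and leaving out replicates. Python 3.11.15, pandas 2.3.3 and matplotlib 3.10.9 were used. Depth is unknown, and no p-value was computed.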

Additional observations from a re-analysis of the deposited data

How the results depend on the processing

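Of 56 recomputed counts of genes with a peak, 42 stayed within 1.5 times the reported one. The window, midpoints in place of overlap and, for the fold of each gene, the peak of highest score or a window of 500 bp moved none beyond it, with 1 exception. With the gene alone, 1 gene was left in the series list (12.5%, near the 9.43% of all protein-coding genes). With a false discovery rate of at most 1%, 4 genes had a peak in replicate 2 (50%, below the 64% of all protein-coding genes), and 3 had a peak, or a common stretch, in all 3 replicates (24.6% and 16.5% of all genes). PSAD-1 lost its peaks in replicates 1 and 2 (rates of 1.51% and 1.07%) although their scores are high, and PSAG that in replicate 2 (1.02%). With a fold of at least 5 the counts were 0, 3 and 3 in replicates 1, 2 and 3, 2 in at least 2 replicates (14.4% of all genes) and 0 in all 3 (2.85%), also for stretches (2.05%). With lists of equal length 3 genes (37.5%) had a peak in replicate 2, equal to the 37.5% of all genes, and 2 had a peak and a stretch in all 3 (17.9% and 14.6%). Among regions at or above the median height the series list kept 1 gene, PSAG (12.5%, near the 9.03% of all protein-coding genes). Leaving out 1 replicate, with a peak required in both others, gave 5 to 6 genes, and the same range for common stretches. The share of all genes was 61% without replicate 1, 36% without replicate 2 and 37.3% without replicate 3 (stretches 53.8%, 33.1% and 33.3%). Without replicate 1 the count for peaks is thus at the background of genes of all lengths. The stretches were added after the data were seen. Folds by the peak nearest the transcription start were not run. No paired analysis was possible because the study has 1 condition. With depth unknown and the input not analysed here, a missing peak cannot be told from a weak one.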
